A study of Mus musculus with 9 samples.

Results

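Mouse chromosome 17 was described along its length by its fragments cut with the restriction enzyme StyI. All StyI fragments of the chromosome were taken except the last interval, which left 113746 fragments of 3053721 in the genome, from position 3002294 to 95271188 (mm9). The libraries came from E14Tg2a cells, an embryonic stem cell line of 129P2 background grown with LIF, and no treatment or genotype differed between them. Nuclei were separated by the high-salt assay into a fraction of high-salt recovered sequences (HRS, 3 libraries) and a fraction of released DNA (Loop, 3 libraries), and 3 input libraries held genomic DNA that was not fractionated. The inputs are titled D0, D12 and D21, terms that the labels do not explain, and they were treated as 1 group. A StyI fragment is counted by a short tag from its end, so that a count does not grow with the length of the fragment.

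In the high-salt assay, proteins that are not firmly bound are removed from the nucleus, and DNA held by the remaining insoluble structures is recovered apart from the DNA loops cut away from them. Active genes and the surroundings of nuclear bodies have been described in such retained fractions. Mouse chromosome 17 carries the major histocompatibility complex (H2), the t-complex, the imprinted Igf2r and Airn genes, and Pou5f1, which encodes the pluripotency factor OCT4. Their positions in mm9 were not looked up, so the stretches below are given by coordinates alone and no gene is assigned to them.

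Chromosome 17 was selected on its measured counts, as an autosome whose share was higher in HRS than in Loop, so the values of HRS against Loop are given as a description. It took 4.20%, 4.16% and 4.24% of the counts in HRS replicates 1, 2 and 3. In the Loop replicates these shares were 4.02%, 4.03% and 3.95%, and in the D0, D12 and D21 inputs they were 4.01%, 3.99% and 3.99%. Each HRS library lay above each Loop and each input library, while Loop and input overlapped. The chromosome held 1.66 to 2.54 M counts per library, of library totals of 39.1 to 62.9 M, and the 95% Wilson intervals of the shares were at most ± 0.0063 percentage points wide on either side, which covers counting error only. Replicate 3 of both fractions stood apart from the other libraries in the genome by larger shares of chromosomes 8, 11 and Y, and values without both of these libraries are given where they bear on the results. No label says that replicates came from separate cultures, so the p-values measure the spread between these libraries, which may be technical.

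Fragment length was taken into account because the fractions counted short fragments to different extents. On chromosome 17, fragments of up to 200 bp held 30.6% to 33.8% of the counts in HRS, 48.4% to 56.8% in Loop and 26.8% to 28.4% in input. The median fragment of the chromosome was 518 bp long, against 539 bp in the genome. For each library an expected count was formed from the pooled count of each fragment over the 9 libraries and the library's share of that fragment's length class. The expected share of chromosome 17 was 40350 CPM (counts scaled to a library of 1 M) in HRS and 41006 CPM in Loop, so the length term was lower in HRS. The observed difference of HRS minus Loop was 1981 CPM, of which the length term was -656 CPM, and the excess after correction was 2637 CPM. This excess was 2336, 1941 and 3632 CPM in the same-numbered pairs 1, 2 and 3, and its mean equalled 6.59% of the chromosome's Loop counts.

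After the correction, the observed share over the expected share was 1.041 ± 0.0091 for HRS, 0.976 ± 0.013 for Loop and 0.993 ± 0.0034 for the inputs (SD, n = 3 each). HRS lay above input by a log2 ratio of 0.07, with all 3 HRS libraries above all 3 inputs (exact two-sided permutation p = 0.1). Loop lay below input by a log2 ratio of -0.025, also without overlap (exact two-sided permutation p = 0.1). Without Loop replicate 3 this ratio was -0.014, and with chromosomes 8, 11 and Y left out of the totals it was -0.013. No comparison of 3 with 3 libraries can give a p below 0.1, and the Benjamini-Hochberg adjusted values over the 2 comparisons are the same. These comparisons use the HRS and Loop libraries by which the chromosome was chosen. Without the length correction Loop and input differed by a log2 ratio of 0.0021 (exact permutation p = 0.9). Over fragments longer than 200 bp and up to 2000 bp alone, also without it, the log2 ratio was -0.02.

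**Figure D1:**
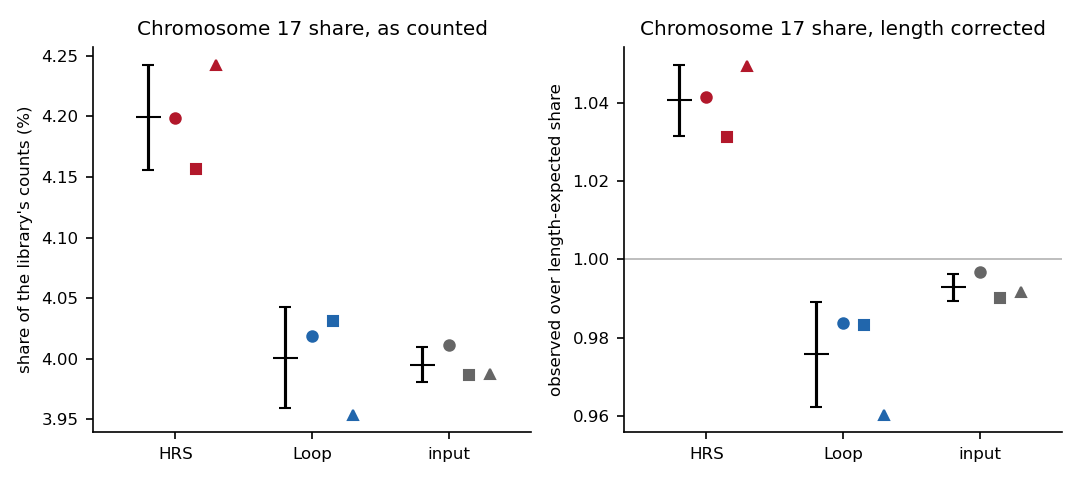
Share of chromosome 17 in each library, as a percent of the library's counts (left) and as the observed share over the share expected from fragment length (right). Circles, squares and triangles are replicates 1, 2 and 3 of HRS and Loop and the D0, D12 and D21 inputs, the black marks beside them are mean and SD (n = 3), and the axes do not start at 0. All 3 HRS libraries lie above the others in both panels.

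Among the 21 chromosomes, chromosome 17 ranked 5 by the uncorrected ratio of HRS over Loop and 3 by the corrected ratio. Its corrected log2 ratio was 0.09, after chromosomes 11 (0.11) and Y (0.10). Without both replicate 3 libraries it was 0.08 and the rank was again 3, but after chromosomes Y (0.12) and X (0.09). Chromosome 11 was at 0.07 without these libraries. The corrected excess was then 2139 CPM.

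The excess was unevenly spread along the chromosome. Of 93 windows of 1 Mb, 38 had a positive excess of HRS over Loop that summed to 5363 CPM, and 55 had a negative one that summed to -2726 CPM. The sign was positive in all 3 pairs in 33 windows and negative in all 3 in 49. The 8 windows with the largest excess held 2868 CPM, or 53.5% of the positive sum, and the largest 7 together reached the net excess of the whole chromosome. The largest of them, at 39000001, had 596 CPM, and -22.2 CPM without 4 fragments described below. Without these fragments the net excess was 2019 CPM. The excess was larger in size than the range of the 3 inputs in 77 of the 93 windows. Windows whose 3 HRS values lay above all 3 Loop values made up 35.5% of those of chromosome 17, where the share over all chromosomes was 21.3%, and windows with HRS below Loop made up 44.1% against 45.7%. The chromosome was selected on this contrast, so nothing is read from these shares. The same holds for the counts of windows above, for which shares over all chromosomes are not given. Against input, HRS lay above in 32 windows (34.4%) and below in 37 (39.8%), with shares over all chromosomes of 22.3% and 38.1%. Loop lay above input in 8 windows (8.6%) and below it in 8, with shares over all chromosomes of 7.55% and 5.03%.

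**Figure D2:**
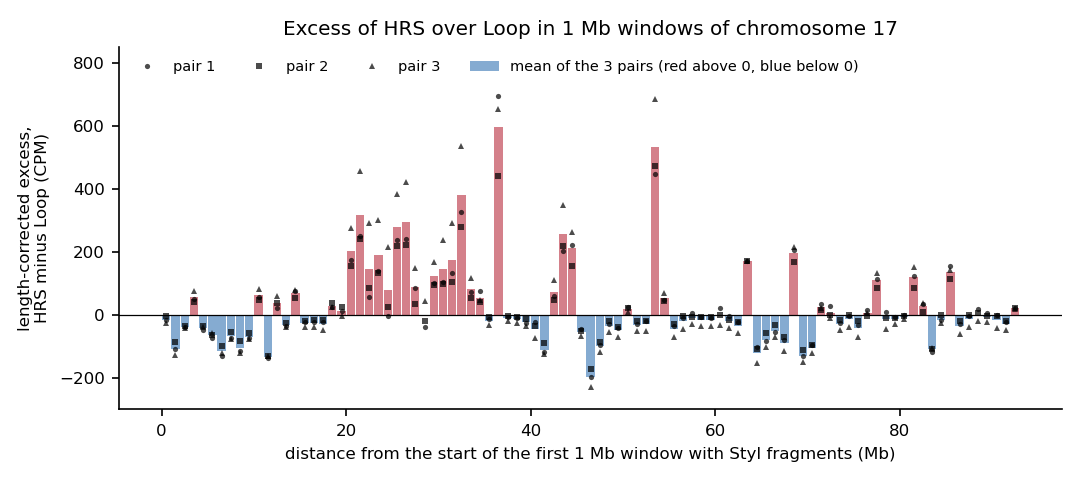
Length-corrected excess of HRS over Loop (CPM) in 1 Mb windows of chromosome 17, against the distance in Mb from the start of the first window with StyI fragments. Bars are means of the 3 same-numbered pairs and the symbols are the pairs. Positive windows cluster between about 20 and 35 Mb on this axis, with separate high windows beyond, the highest at 596 CPM and 534 CPM.

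The stretch from 23000001 to 37000000 had an excess nearly as large as the net excess of the whole chromosome. It was delimited after its values were seen. It holds 14 windows of 1 Mb and 18.4% of the chromosome's fragments, and 13 of the 14 windows were positive. Its excess was 1869, 1718 and 3879 CPM in pairs 1, 2 and 3, with a mean of 2489 CPM, which equals 94.4% of the net value. The net value is what remains of 5363 CPM of positive and -2726 CPM of negative windows. Percentages of it are therefore not parts of a whole. On the same measure the window at 56000001 equals 20.2% and the first 20 windows -23.7%. The stretch took 27.7%, 27.8% and 32.4% of the chromosome's counts in the HRS replicates. It took 25.2%, 25.5% and 26.5% in the Loop replicates and 25.8%, 24.7% and 24.2% in the D0, D12 and D21 inputs. The 3 HRS values lay above all others, and HRS replicate 3 was the highest of all libraries. Loop replicate 3 was likewise the highest of the Loop libraries, so that the excess of pair 3 is largest although both of its members took more of this stretch.

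Within this stretch the largest excess lay at 35000001 to 36000000, with 380 ± 136 CPM (SD, n = 3 pairs, as for the other windows). The window held 1010 ± 136 CPM in the HRS libraries, 654 ± 5.3 in the Loop libraries and 666 ± 29.1 in the inputs (SD, n = 3). The next windows began at 24000001 (316 ± 121 CPM), 29000001 (294 ± 110 CPM) and 28000001 (280 ± 90.8 CPM). In these 4 windows the corrected ratio of HRS over Loop was 1.36-fold to 1.59-fold, and HRS lay above Loop without overlap in each. Windows that adjoin and had a positive excess in every pair formed runs of 4 Mb from 23000001, 3 Mb from 28000001 and 6 Mb from 32000001. The last run reaches 1 window past the stretch.

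Beyond it, the window at 56000001 to 57000000 had an excess of 446, 471 and 684 CPM in the 3 pairs, with a mean of 534 CPM. It held 1459 ± 141 CPM in HRS, 1031 ± 34.5 in Loop and 969 ± 30.7 in the inputs (SD, n = 3), and all HRS values lay above the rest. A 3 Mb run from 45000001 to 48000000 added 541 CPM, in which the windows at 46000001 and 47000001 had 257 ± 79.2 and 212 ± 53.7 CPM (SD, n = 3 pairs). Farther along, windows at 66000001 (170 CPM), 71000001 (195 CPM), 80000001 (111 CPM), 84000001 (120 CPM) and 88000001 (136 CPM) were positive in every pair. The one at 84000001 forms a 2 Mb run of 147 CPM with its right-hand neighbour, and the other 4 had no neighbour that was positive in every pair. The 39 windows from 57000001 to the end nevertheless summed to -242 CPM. The sign of that sum differed between pairs, with 98.1, -95.7 and -728 CPM in pairs 1, 2 and 3.

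On library totals, the start of the chromosome held less of HRS than of Loop. On that scale the median log2 ratio over all 100 kb windows of the genome was -0.17. A negative excess here and below therefore need not set a window apart from the rest of the genome. The 20 windows from 3000001 to 23000000 summed to -692, -503 and -676 CPM in the 3 pairs, with a mean of -624 CPM, and 6 of them were positive. The first window had -16.1 CPM (-10.4 CPM without HRS replicate 3) and the last one, which holds 305 fragments, had 20.3 CPM. The most negative window of the chromosome lay at 49000001 to 50000000, with -200 ± 29.3 CPM (SD, n = 3 pairs). It held 447 ± 44.7 CPM in HRS, 695 ± 16.5 in Loop and 670 ± 22.5 in the inputs (SD, n = 3). The windows at 14000001 (-134 CPM), 72000001 (-130 CPM), 67000001 (-121 CPM) and 9000001 (-117 CPM) came next. In all 5 windows HRS lay below Loop without overlap.

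**Figure D3:**
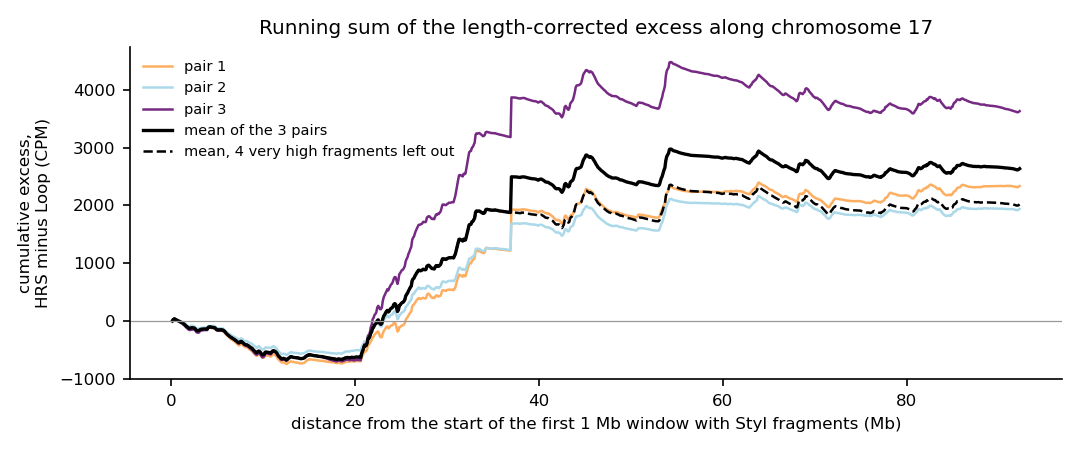
Running sum of the length-corrected excess of HRS over Loop (CPM), added up over 100 kb windows from the left end, against the distance in Mb from the start of the first 1 Mb window. Coloured lines are the 3 pairs, the solid black line is their mean and the dashed line leaves out the 4 very high fragments. The mean falls at first, climbs through the 14 Mb stretch, steps up at the 4 fragments and ends at 2637 CPM, or 2019 CPM without them.

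The largest single window was set by 4 fragments. The window at 39000001 to 40000000 had an excess of 693, 441 and 653 CPM in the pairs, with a mean of 596 CPM, and without these fragments it had -22.2 CPM. Its size also depended on the treatment of short fragments, with 408 CPM without the length correction and 244 CPM over fragments longer than 200 bp and up to 2000 bp. The 4 fragments lie between 39979448 and 39983768, a span of 4320 bp with 5 fragments. Their mean input counts were 50.8 to 209 times the chromosome's median of 21.7 counts among counted fragments, while the next highest fragment of the chromosome reached 23.5 times. The limit of 30 times that sets them apart was set after their counts were seen.

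The 4 fragments are 900, 229, 113 and 72 bp long. Together they held 745 ± 117 CPM in HRS, 323 ± 43.6 in Loop and 248 ± 25.9 in the inputs (SD, n = 3), which is 1.77%, 0.808% and 0.622% of the chromosome's counts. Their length-corrected excess was 710, 455 and 689 CPM in the pairs, with a mean of 618 CPM, or 23.4% of the net excess. The fragment of 229 bp had 14677, 9863 and 9367 counts in the HRS replicates, 4320, 3697 and 5118 in the Loop replicates and 4664, 4806 and 4019 in the D0, D12 and D21 inputs. All 3 HRS counts were above all others, although HRS had the smaller library totals. The fragment of 72 bp had 12410, 10411 and 9248 counts in HRS, 7561, 11639 and 6328 in Loop and 4107, 4716 and 3900 in the inputs, so that Loop replicate 2 exceeded 2 of the HRS libraries there. With length corrected the 4 were 3.04-fold to 5.66-fold higher in HRS than in Loop. As counted, the fragments of 900, 229, 113 and 72 bp were 8.83-fold, 3.32-fold, 2.19-fold and 1.64-fold higher. The correction lowered the first 2 ratios and raised the last 2, to 3.91-fold and 3.86-fold. For the last 2, Loop over input was 1.39-fold and 1.88-fold as counted but 0.68-fold and 0.69-fold corrected. For the first 2, Loop lay below input both ways. Over input, the corrected ratio of HRS was 2.46-fold to 2.91-fold. The fifth fragment of the span, 3006 bp long, had 1 count in all 9 libraries together. The assembly's chromosome 17 carries an annotated copy of the 45S pre-ribosomal RNA gene (Rn45s), and whether these fragments belong to it was not tested. Without the 4 fragments the net excess of chromosome 17 was 2019 CPM, its corrected log2 ratio was 0.07 and its rank was 3.

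Windows of 100 kb gave a finer view, fitted over the whole genome by edgeR's quasi-likelihood test with the length expectation as an offset. Chromosome 17 has 923 such windows with fragments, of which 918 had counts and 917 passed the filter on low counts. The 5 windows without a count in any library hold 611 fragments, at 6600001, 6800001, 8000001, 54100001 and 62200001. Ratios from these fits are scaled by TMM (the trimmed mean of M-values), while the excess in CPM is on library totals. In HRS against Loop 271 windows (29.6%) were higher and 210 (22.9%) lower at a Benjamini-Hochberg adjusted p of 0.05, where the shares over all windows of the genome were 24.0% and 21.2%. Nothing is read from these counts either. Without Loop replicate 1 or Loop replicate 2 the lower windows numbered 134 and 137. On library totals 212 were higher and 316 lower, as the median log2 ratio of all windows moved from -0.02 to -0.17, and the share of calls that were higher moved from 56.3% to 40.2%.

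Against input, HRS was higher in 277 windows of chromosome 17 (30.2%) and lower in 187 (20.4%). Over the genome these shares were 25.4% and 17.6%. Higher windows differed by a median of 1.48-fold and 27 of them by more than 2-fold, while lower windows differed by a median of 1.25-fold and 0 by more than 2-fold. Values over the genome are not given for these folds. On library totals the counts were 207 and 298, with the median log2 ratio of all windows moving from 0.01 to -0.16 and the share of calls that were higher from 59.7% to 41.0%. The balance of higher and lower windows is therefore relative to the scaling. The difference between chromosome 17 and the other chromosomes in these shares was not tested.

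Between Loop and input, edgeR called 0 of 917 windows higher and 0 lower, with 92 at an unadjusted p under 0.05, and DESeq2 called 0 higher and 3 lower. The shares called over the genome were 0.0315% and 0.0118%. Without the length correction edgeR called 125 windows higher and 98 lower. In simulated data of this comparison, 92.5% of windows changed by 1.25-fold were recovered. That simulation gave 198 calls over the genome, where the data gave 8 higher and 3 lower. Its rate therefore need not hold for the data, and differences of this size or smaller may have been missed. The SD of the log2 ratio over the windows of chromosome 17 was 0.08 for Loop over input and 0.40 for HRS over input.

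**Figure D4:**
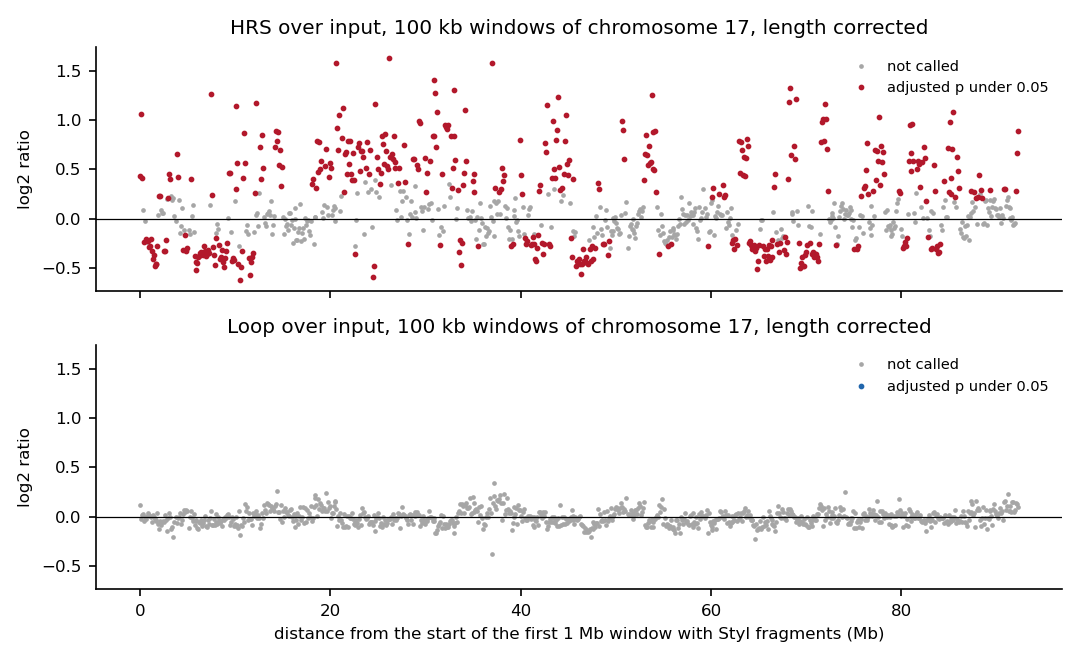
Length-corrected log2 ratio of HRS over input (top) and Loop over input (bottom) in 100 kb windows of chromosome 17, against the distance in Mb from the start of the first 1 Mb window. Coloured points passed an adjusted p of 0.05 and grey points did not. HRS has 277 windows higher and 187 lower, and Loop has 0 in either direction.

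Runs of adjoining called windows showed how far the stretches extend without a break. The longest higher in HRS than in Loop went from 28200001 to 29900000 (1700 kb), with an excess of 558 CPM and a median log2 ratio of 0.61. It held 1808 CPM in HRS, 1283 in Loop and 1286 in the inputs. Runs of 1400 kb (55900001 to 57300000, 633 CPM) and 1300 kb (24200001 to 25500000, 445 CPM) followed. In the other direction the longest were 1600 kb (8700001 to 10300000, -209 CPM) and 1300 kb (48800001 to 50100000, -265 CPM). The latter held 584 CPM in HRS, 912 in Loop and 879 in the inputs. The chromosome held 144 such runs of 1 window or more, 76 of them higher in HRS. The calls come from the contrast that chose the chromosome, and their balance depends on the scaling. Counts of runs over the genome are not given, so nothing is read from this split.

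The 10 windows with the largest ratio of HRS over Loop were higher in HRS by 2.35-fold to 3.83-fold. They were chosen with the same HRS libraries, so the adjusted p-values against input given for them below are not independent support. First was the one at 39900001 that holds the 4 very high fragments. It had 846, 624 and 796 CPM in HRS, 302, 385 and 319 in Loop and 240, 290 and 255 in the inputs. Its log2 ratio over Loop was 1.94, and over input 1.57 ± 0.33 (SE, adjusted p 0.00297). Without the 4 fragments these were -0.03 and -0.17, the latter with an adjusted p of 0.234, so this window's place rests on them.

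The window at 29100001 to 29200000 lies inside the longest run and was high throughout. It held 141, 135 and 172 CPM in HRS, 52.3, 53.7 and 48.0 in Loop and 58.0, 55.0 and 53.6 in the inputs. Each HRS value was above each Loop and input value, and the latter overlapped. The log2 ratio over Loop was 1.63, and over input 1.63 ± 0.15 (SE, adjusted p 4.7e-05). Of its 109 fragments with at least 50 counts over all libraries, 107 were higher in HRS than in Loop. The named windows were chosen for this ratio, so such counts here and below show only how evenly the difference was spread. The limit of 50 counts includes HRS counts, and the share over all fragments is not given. Its leading 10 kb bin, at 29180001, held 35.2 ± 8.8 CPM in HRS, 7.92 ± 0.76 in Loop and 8.26 ± 0.099 in the inputs (SD, n = 3).

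The window at 23600001 to 23700000 was more concentrated. It held 110, 104 and 134 CPM in HRS, 44.0, 42.7 and 45.7 in Loop and 45.6, 43.3 and 43.3 in the inputs, and its log2 ratio over input was 1.58 ± 0.14 (SE, adjusted p 3.4e-05). With length corrected, the bin at 23680001 was 7.04-fold higher in HRS than in Loop. One fragment of 578 bp in that bin (23687067 to 23687645) held 9.72% of the window's HRS counts. It had 444, 571 and 579 counts in the HRS replicates, 16, 22 and 2 in the Loop replicates and 40, 59 and 28 in the inputs. As counted, without the length correction, HRS stood well above input and Loop stood below it. Of the window's 84 fragments with at least 50 counts, 68 were higher in HRS.

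In the window at 36000001 to 36100000 all 132 fragments with at least 50 counts were higher in HRS than in Loop. The window was chosen for its ratio of HRS over Loop, which favours such a count. It held 162, 147 and 204 CPM in HRS, 69.2, 69.9 and 74.9 in Loop and 78.4, 78.8 and 75.8 in the inputs, with a log2 ratio over input of 1.30 ± 0.17 (SE, adjusted p 0.0002). The pair of windows from 33900001 to 34100000 followed, the stronger of which was 2.68-fold higher in HRS than in Loop. Further windows were at 27700001 (2.42-fold), 45700001 (2.40-fold), 56700001 (2.40-fold), 71900001 (2.38-fold) and 46900001 (2.35-fold). In the 9 windows other than the one with the very high fragments, the leading fragment held 2.22% to 9.72% of the HRS counts. All 10 were also higher in HRS against input, with ratios of 2.23-fold to 3.09-fold and edgeR adjusted p from 3.4e-05 to 0.00297. They were chosen with these HRS libraries, which favours a difference from input. None of the 10 was called between Loop and input.

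The strongest windows in the other direction were weaker. At 14500001 to 14600000 the values were 45.5, 47.8 and 37.8 CPM in HRS, 79.9, 81.7 and 80.8 in Loop and 70.5, 72.3 and 71.2 in the inputs. The 3 groups did not overlap as counted, and the log2 ratio of HRS over input was -0.58 ± 0.08 (SE, adjusted p 0.000265). Of its 138 fragments with at least 50 counts, 7 were higher in HRS than in Loop, a count that follows in part from the choice of the window. The others were 27400001 to 27600000, whose stronger window held 101 ± 5.8 CPM in HRS, 169 ± 7.3 in Loop and 171 ± 6.7 in the inputs (SD, n = 3), and 36700001, 49300001 and 8900001. These 5 were lower in HRS than in Loop by 1.42-fold to 1.48-fold and lower than in input by 1.39-fold to 1.51-fold, with edgeR adjusted p of 0.000185 to 0.00504. These windows too were chosen with the same HRS libraries, so the p-values against input are not independent support. None was called between Loop and input. Those at 27400001 and 36700001 lie inside the 14 Mb stretch that was high in HRS, so that stretch was not uniform.

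**Figure D5:**
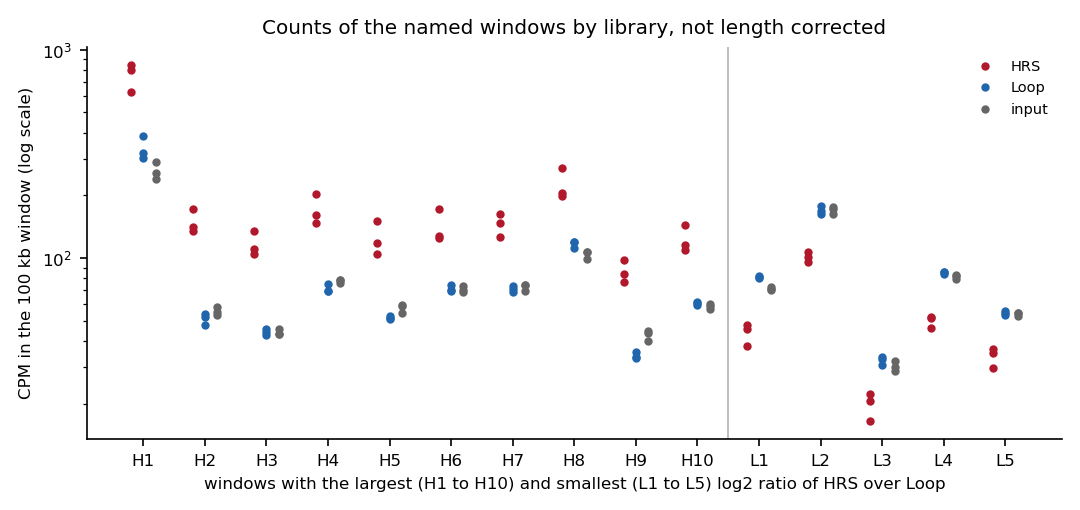
CPM (log scale) of each library in the 10 windows of 100 kb with the largest ratio of HRS over Loop (H1 at 39900001, H2 at 29100001, H3 at 23600001 and on) and the 5 with the smallest (L1 at 14500001 and on), in the order of the text and not corrected for length. The HRS values lie above all Loop and input values in H1 to H10 and below them in L1 to L5.

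The 10 kb bin at 80600001, among the strongest of the genome in HRS against Loop, lies in a 100 kb window that ranked lower than these 10. That window held 69.1, 61.4 and 77.2 CPM in HRS, 33.1, 32.7 and 30.7 in Loop and 39.6, 38.6 and 38.5 in the inputs. It was 2.09-fold higher in HRS than in Loop and 2.04-fold higher than in input. No p is given, since the window was taken for a bin selected on the same HRS libraries.

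The 3 pairs gave similar profiles. Across the 93 windows of 1 Mb the log2 ratio of HRS over Loop correlated at r = 0.98 between pairs 1 and 2, 0.94 between pairs 1 and 3 and 0.95 between pairs 2 and 3. These values are across windows of the same chromosome, which share libraries and fragment composition and are not independent. The profile of pair 3 had the widest spread, with an SD of 0.42 against 0.31 and 0.25.

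The relation of the excess to StyI fragment density depended on the size of the windows. At 1 Mb, the 23 windows with 1404 to 1871 fragments summed to 2460 CPM, 14 of them were positive and their median log2 ratio was 0.24. The windows with 305 to 1054 fragments summed to 234 CPM (median log2 ratio -0.13), a group that includes the window of the 4 very high fragments. Those with 1059 to 1225 and with 1225 to 1402 fragments summed to 58.1 and -116 CPM (medians -0.09 and -0.05). At 100 kb, the 230 windows with 143 to 232 fragments summed to 1274 CPM of the net 2637 CPM, with 101 positive and a median log2 ratio of -0.09. The 230 windows with 45 to 102 fragments summed to 733 CPM (median -0.11), and the 2 groups between them to 112.5 and 518 CPM (medians -0.18 and -0.17). These ratios are on library totals, where the median log2 ratio over all 100 kb windows of the genome was -0.17. Across windows the ratio was weakly related to the number of fragments at 1 Mb (r = 0.17, n = 93) and at 100 kb (r = 0.05, n = 917). The part of fragment density in the excess was not tested.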

How the data were processed

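Per the labels' protocols, an adaptor with an MmeI site was ligated to StyI ends, and short tags from MmeI cutting were sequenced. The submitters' processing notes name CASAVA 1.8.2 and build mm9. For tags that match several places, the handling is not given in the sources used here. Deposited by the authors were whole-number counts per StyI fragment, in a table for each of the 9 libraries. The counting base of the coordinates is not stated. Repeat tables were not used, as they hold no positions.

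Counts were summed by fragment midpoint into windows of 10 kb, 100 kb and 1 Mb. The length correction used 20 length classes. Excess is observed minus expected CPM, HRS minus Loop, on library totals. Windows of 100 kb were tested over the whole genome by the quasi-likelihood test of edgeR 4.0.16 under R 4.3.3 (log expected counts as offset, TMM factors, filterByExpr at a minimum count of 10, Benjamini-Hochberg adjusted p of 0.05), with the libraries of the 2 groups compared. The SE of a log2 ratio comes from its F statistic. Group shares were compared by exact permutation over libraries. DESeq2 1.42.0 and other settings were alternatives. The fits were tested on simulated counts: of windows changed by 1.5-fold, 95.5% (HRS against Loop), 94% (HRS against input) and 100% (Loop against input) were recovered. Of those changed by 1.25-fold, 37.3%, 43.3% and 92.5% were recovered. These simulations gave 168, 166 and 198 calls over the genome. The data gave 6087 higher and 5377 lower in HRS against Loop, and 6461 and 4479 in HRS against input. In Loop against input they gave 8 and 3. The unadjusted p that passes the threshold depends on the number of changed windows, so these rates do not carry over to the data. Windows with small changes may be missing from the counts of calls.

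Chromosome 17, the windows and the tests were chosen with earlier results of these data known. Named windows were the 8 most positive and 5 most negative of 1 Mb by excess, the 10 highest and 5 lowest of 100 kb by ratio among those without overlap between HRS and Loop and with one sign in all pairs (adjoining ones merged), and the first and last. The stretches of several Mb, the runs, other windows and the limits of 200 bp and 30 times were set once values had been seen. HRS and Loop were paired by the replicate numbers in the titles. Deviations from group means in 100 kb windows of the genome correlated at 0.313, 0.13 and 0.366 in the same-numbered pairs. HRS replicate 2 correlated more with Loop replicate 1 (0.249), and replicate 3 of both fractions stood apart. These correlations therefore do not settle the pairing. The inputs carry no replicate number, and the tests hold no pairing term. No genome or annotation of mm9 was used here, so no gene was placed and no sequence is printed.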

Additional observations from a re-analysis of the deposited data

How the results depend on the processing

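The share of chromosome 17 kept its direction in HRS over Loop and HRS over input under every setting run. Loop over input was 0.0021 without the length correction. The excess ranged from 1901 CPM (the 1% of fragments with the highest counts left out) to 3310 CPM (chromosomes 8, 11 and Y left out of the totals). Lower windows in HRS against Loop numbered 316 on library totals and 124 at an adjusted p of 0.01, and 134 to 234 with 1 library left out. Lower windows in HRS against input numbered 298 and 119 under the first 2 of these settings. Loop against input gave 125 higher and 98 lower windows without the length correction and 3 lower with DESeq2. The window at 39000001 had -22.1 CPM without the top 1% of fragments and -22.2 CPM without the 4 very high ones, a setting added after seeing the data, as was leaving out both replicate 3 libraries. At 39900001 the log2 ratios without the 4 fragments were -0.026 over Loop and -0.17 over input. With the replicate block the share ratio was 0.09 and 286 windows were higher and 232 lower, and the block moved neither count by over 1.5 times. Of the named windows, all others kept their direction against Loop and against input under the settings run, and Loop against input passed the threshold in 5 combinations of window and setting. Of the values of excess in 1 Mb windows, 182 moved by less than the SD between pairs and 11 by more, and 2 reversed. Depth limits single fragments more than windows, since the median fragment of chromosome 17 held 8 to 19 counts.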
